A study of Mus musculus with 2 samples.

Results

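The cells described here were monocyte-like cells in mouse skin wounds, named for *Ly6c2* and *Vcan*, 1233 of 23089 deposited cells: 123 in a library of PBS-treated mice and 1110 in one of mice given diphtheria toxin (DTX). They were picked by the measured values of a few genes and not by a sort. Full-thickness back skin wounds of C57BL/6 mice aged 7 to 9 weeks were taken with a 10 mm punch at day 5 after wounding, live cells were sorted by exclusion of a dead-cell dye, and 3 mice were pooled for each of the 2 single-cell libraries. According to the labels, both groups carried *Mrc1-DTR*, in which the *Mrc1* promoter drives the diphtheria toxin receptor (*Mrc1* encodes the mannose receptor CD206), and one received PBS and the other DTX. The methods describe wild-type controls that also received the toxin. The larger number of cells belongs to the *Mrc1-DTR* wounds in the study but to the PBS library here, whereas its immune and C1q macrophage shares run in the direction of the labels. The libraries are called PBS and DTX as labelled, and every ratio between them takes its direction from the labels.

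Classical monocytes leave the bone marrow through the chemokine receptor CCR2, circulate with high surface Ly6C, and enter injured skin within days. In the wound they take up debris, secrete cytokines and turn into macrophages, losing Ly6C and gaining lysosomal, lipid-handling and complement genes. *Mrc1* is turned on during this change, but the cells described here carried its RNA too, and which cells the toxin reached was not tested.

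The files hold 12058 PBS cells with 105511870 unique molecular identifiers (UMIs, each marking one captured RNA molecule) and 11031 DTX cells with 81858751 UMIs. A cell needed 500 detected genes and no more than 6% of its UMIs from mitochondrial genes, which left 8326 in PBS and 7188 in DTX. A macrophage gate then required at least 5 UMIs of *Lyz2*, at least 2 of *Fcgr1*, *Csf1r*, *Adgre1* and *Msr1* together, under 0.5% of UMIs from *Col1a1* and *Col3a1*, under 0.5% from *Krt5* and *Krt14*, and no *Ccr7*. Monocyte-like cells were the gate cells with at least 3 UMIs of *Ly6c2*, at least 3 of *Vcan* and *Plac8* together, under 0.1% of UMIs from the C1q genes, not both *Cbr2* and *Folr2*, and fewer than 5 UMIs of 1 further gene. The values of these 19 genes chose the cells, so they are given as description only, and the 19 were left out of every count of genes.

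Monocyte-like cells made up 7.92% of the 1554 gate cells in PBS (95% Clopper-Pearson interval 6.62 to 9.37) and 24.6% of the 4516 gate cells in DTX (23.3 to 25.9). Of all cells kept they were 1.48% in PBS and 15.4% in DTX. Gate cells with at least 0.1% of UMIs from the C1q genes that were within the limit for the further gene, called C1q gate cells, were 73.2% of the gate in PBS and 32.5% in DTX. Cells in neither class complete the gate. The gate itself held 18.7% of kept cells in PBS and 62.8% in DTX. All intervals cover counting error only. With 1 library of pooled mice per treatment there was no replicate, no test was possible, and differences between mice or captures cannot be told apart from those between treatments.

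**Figure D1:**
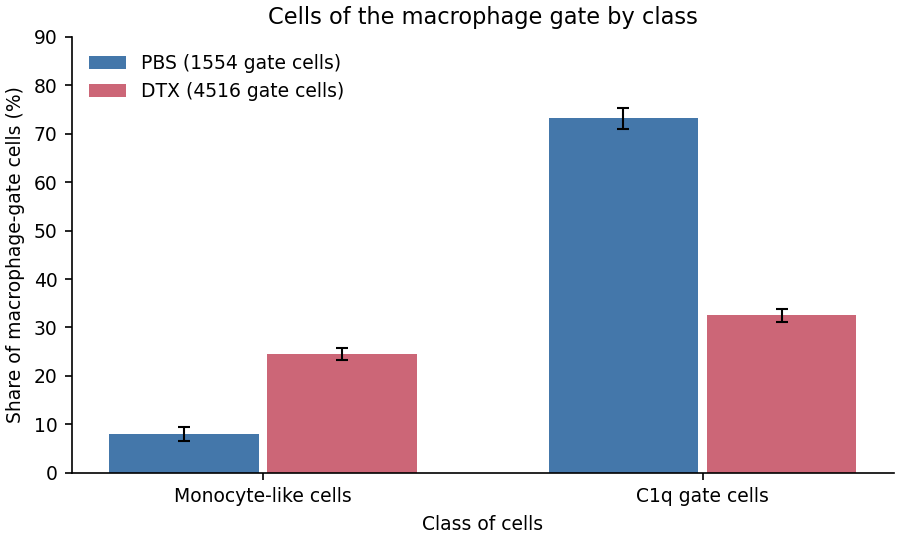
Share of macrophage-gate cells (y axis, %) in 2 classes (x axis) for the PBS library (blue) and the DTX library (red), with 95% Clopper-Pearson intervals as bars. Monocyte-like cells stood at 7.92% in PBS and 24.6% in DTX, and C1q gate cells at 73.2% and 32.5%.

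Cells on either side of the thresholds were counted. In PBS, 236 gate cells passed both the *Ly6c2* and the *Vcan* plus *Plac8* threshold, of which 113 were set aside for C1q, the 10 that carried *Cbr2* and *Folr2* among them. In DTX 1934 passed, with 631 set aside for C1q, 81 for *Cbr2* and *Folr2* and others for the limit of the further gene, these sets partly overlapping, which left 1110. In DTX the 110 members with exactly 3 *Ly6c2* UMIs had *Hp* at 433 CPM (counts per 10 to the power of 6 UMIs of the class) and *Apoe* at 2820 CPM, and the 143 cells with 2 UMIs that otherwise met the rule had 440 and 2767 CPM. The 14 PBS members with 3 *Ly6c2* UMIs had *Apoe* at 4018 CPM, and the 21 PBS cells with 2 UMIs 4433 CPM. In these few PBS cells *Hp* was at 71.9 CPM in the members and 259 CPM in those just outside, and *Chil3* at 483 and 916 CPM. The 24 DTX members with exactly 3 *Vcan* plus *Plac8* UMIs had *Apoe* at 6343 CPM, against 3440 CPM over all DTX members. The members' median UMI count was 6314 in PBS and 7388 in DTX, with 1938 and 2193.5 genes per cell. When each cell was first thinned to 2000 UMIs, the rule kept 3.62% of the gate in PBS and 12.3% in DTX. The libraries shared 37 barcodes among all cells, 20 among kept cells and 0 among the members of both.

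The 5 genes given for the label lie on different chromosomes of GRCm38. *Ly6c2* (15:75108158-75111970, minus strand) encodes a Ly6C surface protein, *Vcan* (13:89655312-89742509, minus strand) the matrix proteoglycan versican, *Plac8* (5:100553725-100572245, minus strand) a small cysteine-rich protein of myeloid cells, *Chil3* (3:106147554-106167564, minus strand) the secreted chitinase-like protein Ym1, and *Hp* (8:109575128-109579172, minus strand) the haemoglobin-binding protein haptoglobin. For the genes that name the cells, the 250 bases upstream of a RefSeq start site were searched on both strands for GAGGAAGT, an element of the myeloid factor PU.1, and for TTGCNNAA, a C/EBP element. Matches are in capitals.
Ly6c2, chr15:75111972-75112221, minus strand: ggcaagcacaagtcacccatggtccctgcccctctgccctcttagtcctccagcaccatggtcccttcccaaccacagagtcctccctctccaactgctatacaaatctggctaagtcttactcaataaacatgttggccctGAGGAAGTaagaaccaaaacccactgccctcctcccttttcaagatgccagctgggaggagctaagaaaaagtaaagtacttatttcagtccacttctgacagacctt
Vcan, chr13:89742513-89742762, minus strand: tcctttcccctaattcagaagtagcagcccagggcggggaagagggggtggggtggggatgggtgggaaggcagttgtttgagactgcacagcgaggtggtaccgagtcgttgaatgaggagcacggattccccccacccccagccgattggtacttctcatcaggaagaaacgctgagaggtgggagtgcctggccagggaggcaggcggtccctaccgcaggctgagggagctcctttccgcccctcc
The *Ly6c2* window held 1 match to the PU.1 letters, which occur in 2.44% of 32851 promoter windows, and none to the C/EBP letters, which occur in 9.56%. The *Vcan* window held neither. Of 9 genes looked up (the label genes, *Mrc1* and 3 genes described next), 8 had an entry, the exception being *Hp*, and the C/EBP letters matched in *Slpi* and at a second start of *Plac8*. A second start of *Ly6c2* held 2 PU.1 matches in an overlapping window.

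The label was checked against monocyte markers. *Ly6c2* stood at 1706 CPM in PBS members and 1694 CPM in DTX members, against 219 and 510 CPM in other gate cells, and *Plac8* at 2904 and 2984 CPM against 521 and 1347 CPM. *Vcan* stood at 219 CPM in PBS members and 475 CPM in DTX members. As the rule took *Vcan* and *Plac8* together, 58.5% of PBS members and 75.2% of DTX members had a *Vcan* UMI (whole cells, at unequal depth). The rule used all of these. Among markers that it did not use, *Chil3* stood at 606 CPM in PBS members and 1979 CPM in DTX members, against 110 and 1092 CPM in other gate cells. *Hp* stood at 172 and 431 CPM in members against 46.2 and 157 CPM in other gate cells. Other gate cells are mostly C1q cells in PBS, and in gate cells below the C1q limit and within the limit for the further gene that were not members *Hp* was at 137 CPM (121 to 155) in PBS and 228 CPM in DTX, and in the neutrophil gate (*S100a8* plus *S100a9* at least 10 UMIs, *Csf3r* at least 1, outside the macrophage gate) at 578 and 792 CPM. *Ccr2*, the receptor that guides them, stood at 202 and 216 CPM against 108 and 157 CPM. *Ms4a4c*, *Clec4e* (the receptor Mincle) and *Ifitm6* were higher in members in both libraries as well. *F13a1* (coagulation factor XIII) was lower in PBS members, at 140 CPM against 183 CPM, and higher in DTX members, at 308 against 240 CPM, and *Itgal* and *Gsr* had log2 ratios of only 0.19 and 0.23 in PBS. Of the wider classical monocyte list, *Fn1* (-0.39 and -0.72) and *Tmem176a* (-0.36 and -0.14) were lower in members in both libraries.

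Markers of macrophages were present but lower. *Mrc1*, the gene that drives the toxin receptor, stood at 253 CPM in PBS members and 291 CPM in DTX members, against 485 and 465 CPM in other gate cells, and 19 and 69 CPM outside the gate. After thinning to 2000 UMIs, 36.6% of PBS and 37.2% of DTX members had an *Mrc1* UMI, against 1.13% and 1.86% of fibroblast-gate cells (at least 0.5% of UMIs from *Col1a1* and *Col3a1* and under 0.5% from *Krt5* and *Krt14*), which should lack it. *Apoe* (apolipoprotein E) stood at 2460 and 3440 CPM in members against 10836 and 5770 CPM in other gate cells, but it was not particular to macrophages, at 2907 and 1331 CPM outside the gate and 5822 and 5166 CPM in the keratinocyte gate (at least 0.5% of UMIs from *Krt5* and *Krt14*). Gate cells below the C1q limit and within the limit for the further gene that were not members lay nearer to members. *Mrc1* stood there at 315 CPM in PBS and 325 CPM in DTX, and *Apoe* at 3646 and 3908 CPM. The cells thus carried monocyte markers together with macrophage markers at a lower level than in other gate cells pooled.

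Markers of other cells were mixed. Of 7 neutrophil genes used, 5 were higher in members than in other gate cells in both libraries (*Il1r2*, *Trem1*, *Hdc*, *Csf3r* and *Mmp8*) and *S100a8* and *S100a9* were lower in both, with list medians of 0.62 and 0.36. The sum of the 16 neutrophil genes was 735 CPM in PBS members against 442 CPM in other gate cells, and 1322 against 1392 CPM in DTX. In PBS the fibroblast sum was also higher in members (1328 against 836 CPM), as were the lymphocyte (172 against 41.4 CPM) and the endothelial and mural sum (252 against 43.8 CPM). In DTX the fibroblast sum (208 against 281 CPM) and the endothelial and mural sum (32.7 against 103 CPM) were lower in members, and the lymphocyte sum was higher (56.1 against 39.4 CPM). Of 203 endothelial and mural UMIs in PBS members, *Acta2* had 69, 62 of them in 1 cell, and *Rgs5* 58, 57 of them in 1 cell. Of 139 lymphocyte UMIs, *Cd3g* had 59, all in 1 cell. The part of these other cell types in the results was not tested. The defining neutrophil gene *Ly6g* had 0 UMIs in PBS members (at most 3.72 CPM by a limit of 3 counts) and 1 UMI in DTX members, and *Retnlg* 0 and 106 UMIs, at 12.3 CPM in DTX against 2659.8 CPM in the neutrophil gate. Of the dendritic cell genes, *Flt3* had 2 and 54 UMIs, *Zbtb46* 1 and 3, and *Clec9a* 0 and 1. *Cd79a* of B cells had 0 and 1 UMIs. *Ly6c1*, a near copy of *Ly6c2* that can share reads with it, stood at 17.4 and 2.90 CPM in members and at 815 and 696 CPM in the fibroblast gate. The 13 genes of the granulocyte and progenitor list summed to 21.1 CPM in PBS members and 61.7 CPM in DTX members, led by *Lcn2*, with *Ms4a3*, *Ngp* and *Camp* at 0.

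**Figure D2:**
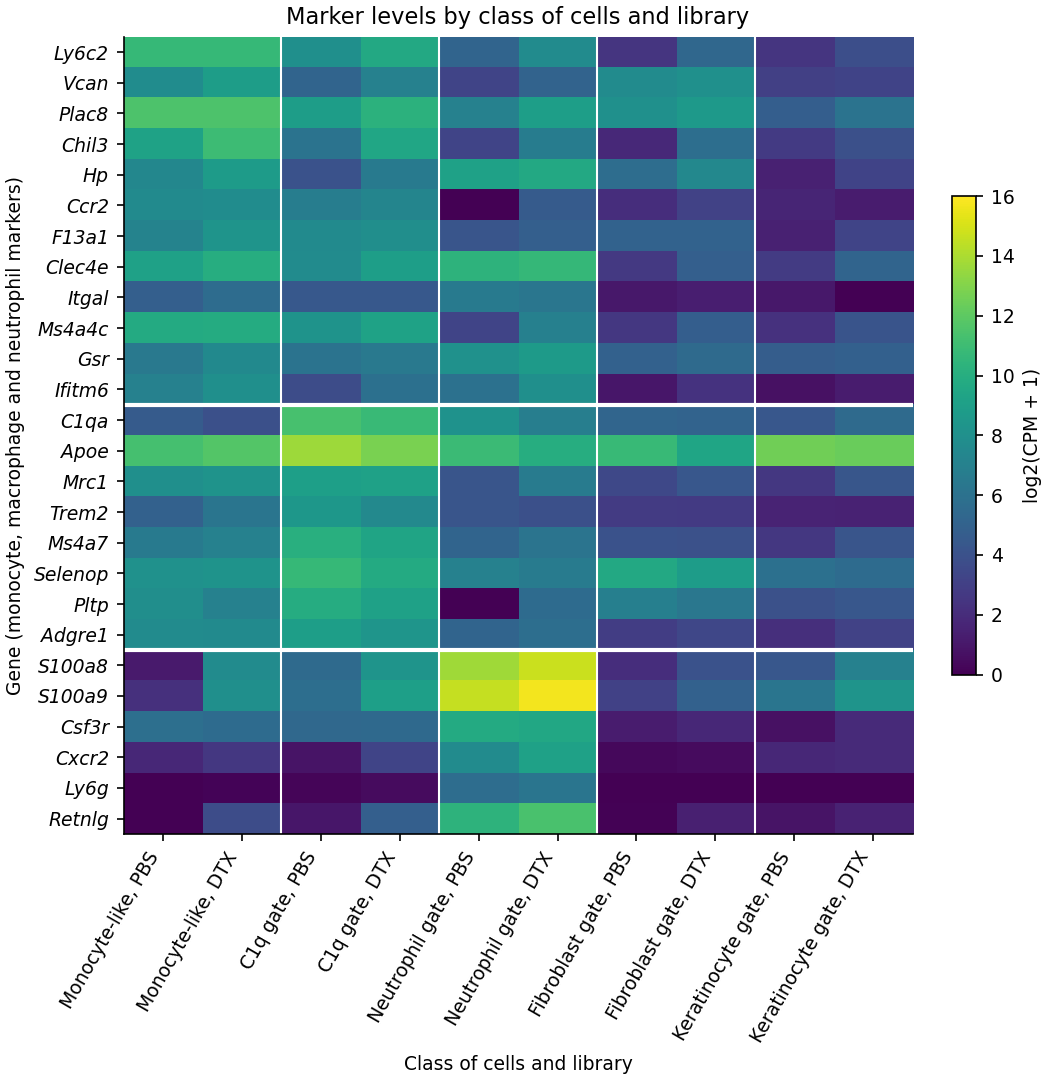
Levels as log2(CPM + 1), in colour, of monocyte (top), macrophage (middle) and neutrophil (bottom) markers, 1 row a gene, in 5 classes of cells of the PBS and the DTX library, 1 column a class and library. *Hp* was at 172 and 431 CPM in monocyte-like cells and at 46.2 and 157 CPM in all other gate cells pooled, while *C1qa*, used by the rule, was low by construction.

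Set against all other gate cells of its own library, the class differed in few genes. Of 2423 genes with a mean of at least 50 CPM, 4 were at least 2-fold higher in both libraries (0.165%) and 12 at least 2-fold lower in both (0.495%). In PBS alone 30 genes were higher and 41 lower, and in DTX 6 and 14. Since members were cut from the same cells, these are descriptions of what the class is.

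The 4 higher genes were *Ifitm6*, a myeloid interferon-induced transmembrane gene, *Hp*, *Mcemp1*, a mast cell and monocyte membrane gene, and *Slpi*, an inhibitor of neutrophil elastase. *Ifitm6* stood at 129 CPM in PBS members and 252 CPM in DTX members, with log2 ratios of 2.88 and 1.74 to other gate cells. *Mcemp1* stood at 135 and 204 CPM, with log2 ratios of 2.14 and 1.04, and *Slpi* at 233 and 847 CPM, with 1.03 and 1.06. The next in order were *Chil3* (2.47 and 0.86), *Itgb7*, an integrin chain (0.97 and 0.78), *Napsa*, an aspartic protease (1.26 and 0.78), *Tarm1* (1.10 and 0.78), *Arhgap26*, *Tmsb10*, *Ifitm3* and *Clec4e*. Reads of the *Ifitm* genes may be shared among near copies.

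Of the 12 lower genes, *Ccl8*, a chemokine of tissue macrophages, stood at 28.5 CPM in PBS members and 11.7 CPM in DTX members, against 1418.5 and 287 CPM in other gate cells, log2 ratios of -5.64 and -4.61. *Pf4* (platelet factor 4, which tissue macrophages also make) had log2 ratios of -6.16 and -3.39, *Ms4a7* -3.20 and -1.83, *Pltp*, which transfers phospholipids, -1.83 and -1.53, and *Cd63*, a lysosomal tetraspanin, -1.52 and -1.46. *Trem2*, a lipid receptor, stood at 31.0 and 73.7 CPM against 306 and 168 CPM. The others were *Mtss1*, *Acp5*, *Pdpn*, *Timp2*, *Nrp2* and *Cst6*, the last with a ratio above 0 in PBS with a minimum of 2 UMIs in the rule and in DTX with up to 10% mitochondrial UMIs. Of 25 genes used of the macrophage differentiation list, 24 were lower in members in both libraries and none higher, and 5 were past 2-fold in both. That list summed to 17317 CPM in PBS and 18908 CPM in DTX members, and to 44198 and 30744 CPM in C1q gate cells. In gate cells below the C1q limit and within the limit for the further gene that were not members, its sums were nearer, at 21562 and 21053 CPM. Of 22 genes used of the classical monocyte list, 19 were higher and 2 lower in both, and 4 were past 2-fold in both at the 20 CPM minimum for lists.

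**Figure D3:**
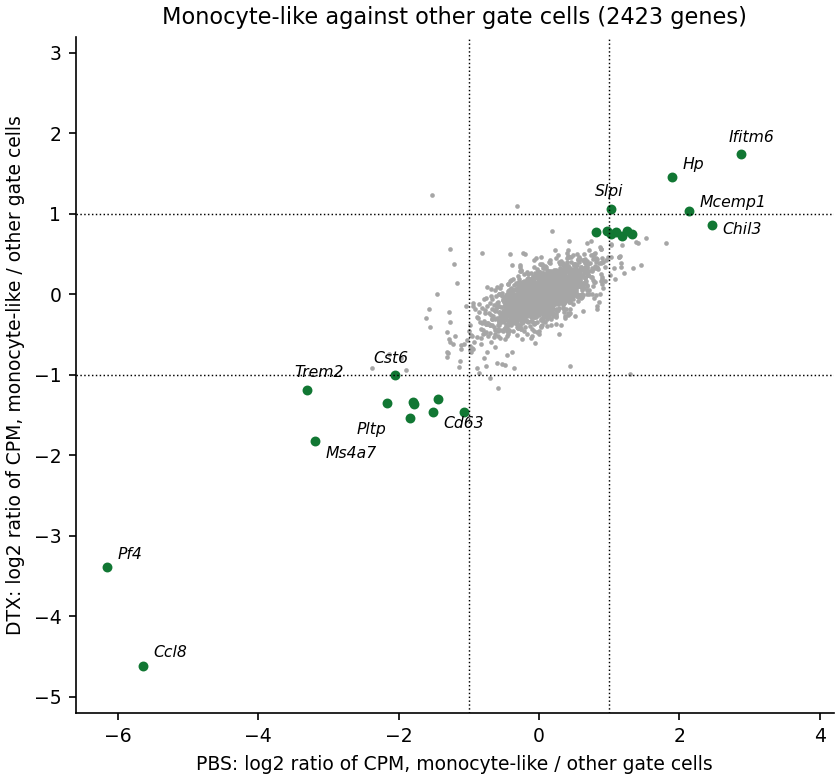
Log2 ratio of CPM in monocyte-like cells to other gate cells, in the PBS library (x axis) and the DTX library (y axis), 1 point for each of 2423 genes; dotted lines mark 2-fold, and green points are the genes chosen by the smaller of both ratios. *Ifitm6* stood at 2.88 and 1.74 and *Ccl8* at -5.64 and -4.61.

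Monocyte-like cells of the DTX library were then compared with those of the PBS library. Most genes used of the innate receptor and inflammatory mediator lists were higher in DTX members, and the class II antigen presentation genes were lower. Of 2592 genes tested, 61 were at least 2-fold higher in DTX members (2.35%) and 45 at least 2-fold lower (1.74%), with a median log2 ratio over all genes of 0.06. These genes had a mean of at least 50 CPM, whereas list genes entered at 20 CPM, for which no share over all genes was taken. With a minimum of 10 CPM, 215 of 6357 genes were past 2-fold higher and 252 past 2-fold lower. From here on a log2 ratio is of CPM in DTX to CPM in PBS members, with an exact conditional binomial interval of 95%, and for some genes the ratio in other gate cells of the same libraries is set beside it. A gene without one is not thereby alike in both.

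Classical monocyte genes were mostly higher in DTX members, although members of both libraries had passed the same thresholds. Of the 22 genes used, 19 were higher and 3 lower, 6 and 1 past 2-fold, with a median log2 ratio of 0.78 against 0.06 for all genes. *Chil3* had a log2 ratio of 1.71 (1.58 to 1.84) and *Hp* of 1.32 (1.08 to 1.58). Both were larger elsewhere, at 3.31 and 1.76 in other gate cells and 4.76 and 2.09 outside the gate. *Fn1* (fibronectin) and *F13a1* stood at 167 and 140 CPM in PBS and 344 and 308 CPM in DTX. *Ifitm3* and *Thbs1* (thrombospondin 1), the most abundant of the list by the mean of both libraries, had log2 ratios of 0.27 and 0.81, and *S100a6* and *S100a4* of -0.215 and -0.26. *Ms4a4c* (0.09) and *Ccr2* (0.09, -0.14 to 0.33) had intervals that include 0. *Tmem176a* was the 1 gene past 2-fold lower (-1.14). In other gate cells the median of the same list was 0.93. By share of thinned cells with a UMI, *Chil3* was at 38.2% in PBS and 71.2% in DTX members and *Hp* at 22.8% and 46.6%. In fibroblast-gate cells, which should lack it, *Chil3* was at 0.387% and 4.71%.

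Of 15 genes used of the recruitment and adhesion list, 12 were higher, 4 past 2-fold, and 3 lower (median 0.52, and 0.45 with 13 higher in other gate cells). *Ccr1*, a receptor for inflammatory chemokines, stood at 182 CPM in PBS and 558 CPM in DTX members, a log2 ratio of 1.61 (1.38 to 1.86), and *C5ar1*, the receptor of complement C5a, at 170 and 518 CPM. *Itgam*, the CD11b integrin chain, stood at 109 and 312 CPM. *Itgb1*, an integrin chain, had a log2 ratio of -0.09 (-0.36 to 0.20), and *Selplg* of -0.69. All 15 genes used of the innate receptor list were higher, 2 past 2-fold (median 0.65, and 0.55 with 13 higher in other gate cells), among them the endotoxin receptor *Tlr4* (1.67), the amplifier *Trem1* (1.03), *Cd14* (0.69) and *Nlrp3* (0.90).

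Inflammatory mediators were mostly higher. Of 21 genes used, 17 were higher, 12 of them past 2-fold, and 4 lower, 1 past 2-fold (median 1.08, and 0.64 in other gate cells). *Ccl2*, which attracts further CCR2-bearing monocytes, stood at 480 CPM in PBS and 1507 CPM in DTX members, a log2 ratio of 1.65 (1.51 to 1.80), with 28.7% of its PBS UMIs in 1 cell, and *Ccl7*, which shares its receptor, at 247 and 704 CPM. The neutrophil attractants *Cxcl2* and *Cxcl3* had log2 ratios of 1.11 and 2.90, the second with 40.8% of its PBS UMIs in 1 cell, whereas *Cxcl1* and, outside the list counted here, *Cxcl5*, which attract neutrophils too, had ratios of -0.92 and -3.28, with 31.4% and 90.3% of their PBS UMIs in 1 cell. *Il1b* stood at 1988 and 4372 CPM, a log2 ratio of 1.14 (1.06 to 1.21). *Saa3* (serum amyloid A3) stood at 93.0 and 437 CPM, but 22.6% of its DTX UMIs and 33.3% of its PBS UMIs were in 1 cell, and its log2 ratio was 2.23 in members, 0.82 in other gate cells and 0.08 outside the gate. *Ptgs2*, the inducible cyclooxygenase, had a log2 ratio of 1.44. *Tnf* (0.14) and *Il1rn*, the antagonist of IL-1 (0.24), had smaller ratios, and *Il6* a negative one (-2.15), from 46 PBS UMIs of which 50% were in 1 cell.

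Other genes chosen by their intervals were *Ifitm1*, at 118 CPM in PBS and 1012.5 CPM in DTX members (3.10, 2.81 to 3.41), *Lrg1*, an acute phase glycoprotein (3.45, from 8 PBS UMIs), *Slpi* (1.86), and *Cd93* (1.92). *Ifitm1*, *Cxcl3*, *Lrg1* and *Slpi* had log2 ratios of 3.67, 3.06, 3.08 and 1.83 in other gate cells, and *Cd93* one of 0.47 (0.37 to 0.57). For *Cd93* the log2 ratio outside the gate was 1.70 (1.58 to 1.81), so a high ratio was not particular to members. *Pf4* stood at 13.6 CPM in PBS and 125 CPM in DTX members, a log2 ratio of 3.19 (2.35 to 4.2), and of 0.42 in other gate cells. Outside the gate it stood at 22.7 and 229 CPM, a log2 ratio of 3.33 (3.26 to 3.41), so the ratio was not particular to members, and the part of free RNA was not tested.

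*S100a8* and *S100a9*, which encode calprotectin and which blood monocytes share with neutrophils, had the highest ratios. *S100a8* had 1 UMI in PBS members and 1826 in DTX members, 1.24 and 212 CPM, and *S100a9* 3 and 2174 UMIs. In other gate cells *S100a8* stood at 49.3 and 284 CPM and in all cells outside the gate at 42 and 1187 CPM. The neutrophil gate held 57 PBS and 295 DTX cells, with *S100a8* at 13423 and 27053 CPM. After thinning, 0 of 123 PBS members had an *S100a8* UMI (up to 2.95%) and 7.39% of DTX members, against 0.355% and 1.71% of fibroblast-gate cells. The 16 neutrophil genes, *S100a8* and *S100a9* among them, summed to 735 CPM in PBS members and 1322 CPM in DTX members. *Il1r2*, which led the sum, had a log2 ratio of -0.05, and *Camp* and *Ngp* were at 0. The sum had a log2 ratio of 0.85 in members and a larger one of 1.66 in other gate cells. The part of neutrophil RNA in these values was not tested.

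Genes of repair were divided. Of 16 used of the repair and growth factor list, 11 were higher, 5 past 2-fold, and 5 lower, 2 past 2-fold (median 0.72). In other gate cells 11 were higher and 5 lower as well (median 0.39). *Spp1* (osteopontin) stood at 315 CPM in PBS and 884 CPM in DTX members and *Hbegf*, an EGF receptor ligand, at 34.7 and 97.1 CPM, with a ratio of 0.10 for *Hbegf* in other gate cells. *Tgfb1* and *Vegfa* had log2 ratios of 0.94 and 0.47, *Areg* of -0.26 and *Pdgfa* of -1.96. For *Areg* 35.7% and for *Pdgfa* 76.2% of the PBS UMIs were in 1 cell. Without the highest cell of the gene in each library, *Areg* turned to 0.31 and *Pdgfa* became 0.01. Of 8 alternative activation genes used, *Chil3* and *Ccl24* (with 66.7% of 15 PBS UMIs in 1 cell) were past 2-fold higher and *Mgl2*, a lectin of dermal dendritic cells and macrophages, past 2-fold lower, at 104 CPM in PBS and 7.55 CPM in DTX members, with its PBS UMIs in 18.7% of members.

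The class II antigen presentation genes were lower in DTX members, and all 6 used were past 2-fold (median -1.49). *Cd74*, the invariant chain, stood at 20959 CPM in PBS members and 7536 CPM in DTX members, a log2 ratio of -1.48 (-1.5 to -1.45). *H2-Ab1*, *H2-Aa* and *H2-Eb1* had log2 ratios of -1.59, -1.51 and -1.60, and the peptide-loading genes *H2-DMa* and *H2-DMb1* of -1.18 and -1.09. The same 6 were lower in DTX in other gate cells (median -1.04). Outside the gate *Cd74* and *H2-Ab1* were higher in DTX, with log2 ratios of 1.32 and 1.35. Over single cells, *Cd74* had a median of 24140 CPM in PBS members, with quartiles of 10760 and 29620, and of 3249 CPM in DTX members, with quartiles of 399 and 11340. The upper quartile of DTX members thus lay near the lower quartile of PBS members. After thinning, 92.7% of PBS members (86.6 to 96.6) and 55.5% of DTX members (52.5 to 58.5) had an *H2-Ab1* UMI, against 9.35% and 10.0% of fibroblast-gate cells.

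Interferon-stimulated genes differed little in size. Of 17 used, 15 were lower in DTX members, 2 past 2-fold, and 2 higher (median -0.42), whereas 10 of the 17 were higher in other gate cells (median 0.17). *Isg15* stood at 671 and 660 CPM, *Irf7* at 379 and 305 CPM, and *Cxcl10* at 75.6 and 21.5 CPM, with 57.4% of its PBS UMIs in 1 cell. *Ifi204*, at 299 and 376 CPM, was 1 of the 2 higher. Without the highest cell of the gene in each library, the 2 genes past 2-fold, *Cxcl10* and *Mx1*, had log2 ratios of -0.77 and -0.97. *Isg15*, *Zbp1* and *Gbp2*, near 0 before at -0.02, -0.05 and -0.10, then turned to 0.06, 0.02 and 0.07. Leaving out a cell takes more from the smaller PBS class and so moves most ratios upward.

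The macrophage differentiation list was divided in members. Of 25 genes used, 14 were higher in DTX members and 11 lower (median 0.16), and in other gate cells 6 were higher and 19 lower (median -0.55). *Apoe* had a log2 ratio of 0.48 (0.42 to 0.55) in members and -0.91 (-0.92 to -0.90) in other gate cells, and *Trem2* of 1.25 (0.68 to 1.89) and -0.87 (-0.94 to -0.79). Outside the gate *Trem2* stood at 6.82 and 16 CPM, a log2 ratio of 1.23 (1.04 to 1.42), as large as in members, and *Apoe* had a ratio of -1.13. *Ctsl* (cathepsin L) stood at 460 CPM in PBS and 1194 CPM in DTX members. *Lpl* (lipoprotein lipase), *Axl* and *Cd81* were past 2-fold lower, *Cd81* with 53.5% of its PBS UMIs in 1 cell. *Mrc1* had a log2 ratio of 0.21 (-0.00 to 0.42) in members. The 2 classes have the same control and treated libraries, so these are values side by side and the difference between them was not tested.

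Of the remaining lists, 17 of 19 glycolysis and hypoxia genes used were higher and none past 2-fold (median 0.40). In other gate cells 16 were higher, with a larger median of 0.54. *Gapdh* stood at 1332 and 1756 CPM in members, the lactate exporter *Slc16a3* at 378 and 674 CPM, and *Ndrg1* was lower (-0.89). Of 18 oxidative burst and antioxidant genes, 10 were higher and 8 lower (median 0.04, and 0.11 in other gate cells). *Gsr* (1.13) and *Mgst1* (1.07) were past 2-fold. Of 21 transcription factors, 13 were higher and 8 lower (median 0.20, and 0.21 in other gate cells). *Hif1a* (1.19) and *Maf* (1.43) were past 2-fold higher. *Id3* (-1.61), *Atf3* (-1.31), *Irf1* (-1.16) and *Nr4a1* (-1.0) were past 2-fold lower. Without the highest cell of the gene, a step that moves most ratios upward, these were -1.08, -0.84, -0.84 and 0.04. Of the lower ones only *Id3* stayed past 2-fold. *Cebpb* and *Spi1*, the gene of PU.1, had log2 ratios of 0.51 and 0.20. Of 16 immediate early and stress genes, 11 were lower, 2 past 2-fold (*Fosb* and *Atf3*, median -0.36, above 0 with at most 2000 genes per cell or a minimum of 5 UMIs in the rule). The median of that list was -0.27 in other gate cells. Of 4 cell cycle genes used, *Stmn1* was past 2-fold lower (-1.41), and *Pcna*, *Hmgb2* and *Tubb5* had log2 ratios of 0.61, 0.04 and -0.01. After thinning *Mki67* was found in 2 of 123 PBS members (1.63%, 0.20 to 5.75) and 3 of 1110 DTX members (0.27%, 0.06 to 0.79), intervals that overlap. Unthinned, the shares were 1.63% and 1.08%, and in thinned fibroblast-gate cells 0.90% and 1.71%. Of 5 nonclassical monocyte genes, 2 were past 2-fold lower, *Fabp4* and *Nr4a1*, with 88.2% and 53.3% of their PBS UMIs in 1 cell.

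**Figure D4:**
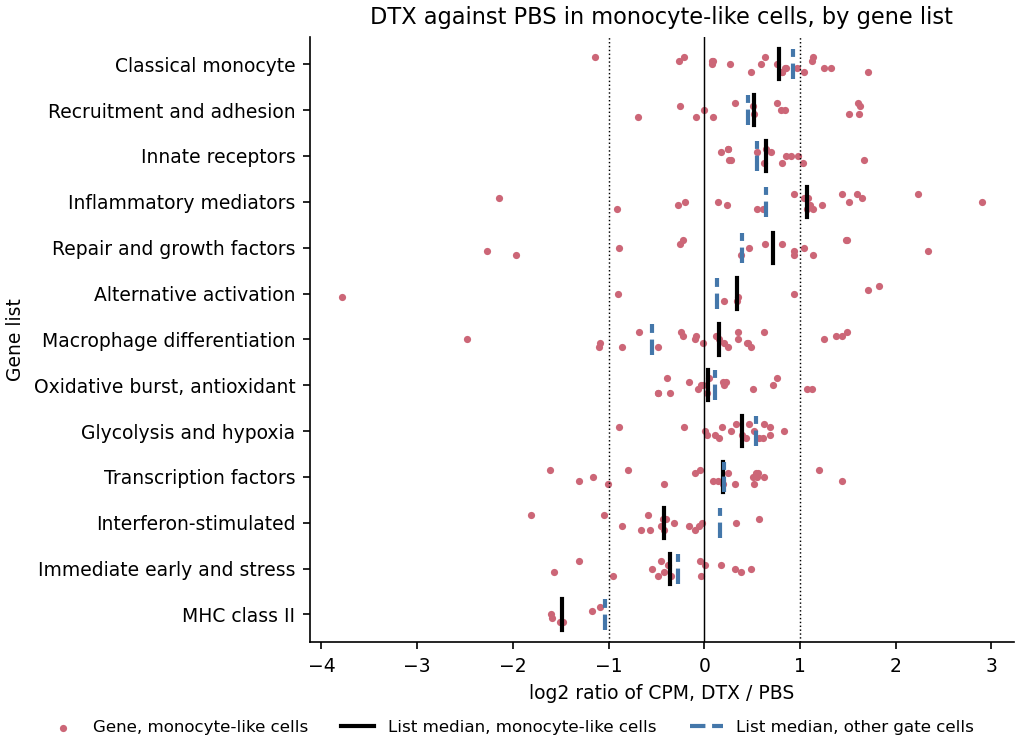
Log2 ratio of CPM, DTX to PBS (x axis), in monocyte-like cells for 13 gene lists (y axis), 1 red point a gene, with the list median in monocyte-like cells (black bar) and in other gate cells (dashed blue bar); dotted lines mark 2-fold. MHC class II genes were lower (median -1.49) and inflammatory mediators mostly higher (1.08), and the medians of macrophage differentiation genes were 0.16 and -0.55.

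The lower genes rested partly on single cells, which weigh more among 123 PBS members than among 1110. For 10 of the 45 genes over 50% of the PBS UMIs were in 1 cell, and for 19 over 25%, whereas 0 of the 61 higher genes had over 25% of their DTX UMIs in 1 cell. Without the cell highest in a gene in each library, an alternative chosen after seeing the data, 28 of the 45 lower genes remained past 2-fold. Leaving out 1 of 123 cells takes more from PBS than 1 of 1110 from DTX and so moves most ratios upward. By this the 61 higher genes could hardly be lost (75 genes were then higher in all), and the result says nothing of their stability. The same shift can add to the loss among the 45 lower genes. *Cxcl5* and *Col4a1* had 84 of 93 and 76 of 82 PBS UMIs in 1 cell, and their log2 ratios of -3.28 and -3.17 became -0.25 and -0.34 without it. In other gate cells the ratios were -0.28 for *Cxcl5* and 1.24 for *Col4a1*, the opposite direction. *Krt79* went from -2.99 to -0.895 and *Fabp4* from -2.26 to -0.08. All 59 PBS UMIs of the T cell gene *Cd3g* were in 1 cell, as were 57 of 58 of the pericyte gene *Rgs5*. The 10 fibroblast genes outside the rule summed to 1328 CPM in PBS members and 208 CPM in DTX members, led by *Sparc* (469 and 46.0 CPM, a log2 ratio of -3.35 against -1.05 in other gate cells), with none at 0, and the library outside the gate held 3180 fibroblast-gate cells in PBS and 707 in DTX. *Dcn*, *Col1a2* and *Bgn* were likewise lower, and the part of RNA from fibroblasts was not tested. The 10 keratinocyte genes summed to 1153 and 1044 CPM, led by *Dmkn*, and *Cst6* had 55.6% of its PBS UMIs in 1 cell. *Mid1* (X:169685199-170005736), which spans the pseudoautosomal boundary in C57BL/6 mice, and *Gm47283* (Y:90784738-90816464) had log2 ratios of -6.14 and -6.6 in members and -6.73 and -5.90 in other gate cells, in 55.3% of PBS and 1.71% of DTX members for *Mid1*. Outside the gate their log2 ratios were -2.85 and -5.40, so the lower values were not particular to members. Both are counted among the 45 lower genes. *Lpl* and *Mgl2* had log2 ratios of -2.48 and -3.94 without their highest cells, against -2.48 and -3.79 with them and -3.16 and -1.91 in other gate cells.

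Members also varied among themselves. They were thinned to 2000 UMIs, ordered in each library by the summed UMIs of the macrophage differentiation list, and divided into 3 equal parts of 41 cells in PBS and 370 in DTX. Genes of that list made the order, so the gradients of *Apoe*, *Ctsd* and *Cd63* along it are by construction. Summed UMIs of the list per cell ran from 8 to 93 in PBS and from 4 to 147 in DTX.

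*Ly6c2*, *Vcan* and *Plac8* chose the cells, so their values here are cut off from below by the rule and are description only. Along that order *Ly6c2* stood at 1902, 1610 and 1793 CPM in PBS and 1750, 1815 and 1831 CPM in DTX from the lowest to the highest part. *Vcan* was lower in the highest part, at 146 CPM against 354 CPM in PBS and 285 against 601 CPM in DTX. *Plac8* had log2 ratios of -0.06 and -0.43. *Il1b* was at 3073, 1561 and 1122 CPM in PBS and at 5564, 4323 and 2545 CPM in DTX. *Cd74* went from 25134 to 17122 CPM in PBS and from 8873 to 5597 CPM in DTX, so that every part of the DTX members was below every part of the PBS members. *Chil3* had log2 ratios of -0.13 (-0.70 to 0.43) and 0.07 (-0.03 to 0.18). The median UMIs of whole cells in the 3 parts were 6494, 6476 and 5370 in PBS and 8219, 7368.5 and 6801 in DTX, so depth moved with the order, and its part was not tested.

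**Figure D5:**
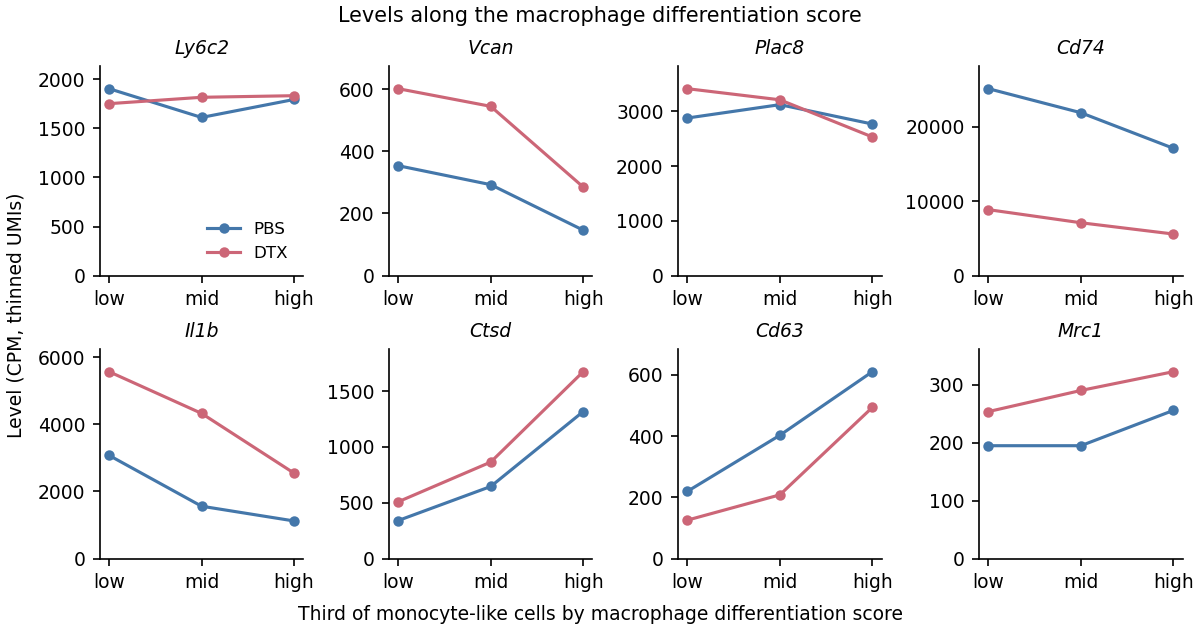
Levels in CPM (y axes, from 0) of 8 genes in 3 equal parts of monocyte-like cells ordered by the macrophage differentiation score (x axes), in PBS (blue) and DTX (red), from cells thinned to 2000 UMIs; *Ctsd*, *Cd63* and *Mrc1* belong to the score. *Ly6c2* lay between 1610 and 1902 CPM while *Vcan* and *Il1b* were lower in the highest part of both libraries.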

How the data were processed

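The deposited UMI counts of both libraries were made by the authors with Cell Ranger (version 6.1.1 in the submitters' notes, another in the methods) on mm10, and they were used as deposited. Per the methods there were 2 technical replicates but none from further mice, and each treatment has 1 deposited library. A ceiling of 2000 genes per cell, given in the methods, was tried as an alternative only. Within each class the UMIs of a gene were added up and scaled to the class total (CPM), and log2 ratios were taken without a pseudocount. Genes with a mean of at least 50 CPM over the classes compared (20 CPM for lists) entered, without the 19 rule genes (1 of which, with the class it defines, is not reported here), and a gene was called at 2-fold. A ratio with a class at 0 used a floor of 3 counts. Intervals are exact at 95% (conditional binomial for ratios, Clopper-Pearson for shares) and, like the floor, cover counting error only. Those of ratios treat each UMI as an independent draw, from totals of 806795 in PBS and 8611337 in DTX members. They leave out the spread of UMIs among cells and so are too narrow where 1 cell held many. Doublets were kept, and the 8% of cells with the highest Scrublet score (scanpy 1.11.5) were left out in an alternative. Named genes were the label markers and *Mrc1*, the 12 highest and 12 lowest of each comparison (by the smaller ratio of both libraries, or by the interval bound nearest to 0), and up to 6 abundant genes and the defining markers of each list; genes named outside this rule were chosen after their values were seen, among them *Tlr4*, *Trem1*, *Nlrp3*, *Hbegf*, *Pdgfa*, *Ctsl*, *Cxcl10*, *Cd3g* and *Rgs5*. The members and the 24 lists were chosen with earlier results of these data known. Positions are from GENCODE vM21 and promoter sequences from RefSeq, both on GRCm38. The ratio calculation was run on simulated counts drawn without variation among cells, which checks the calculation and not the intervals for these data. Python 3.11.15, numpy 2.4.6, scipy 1.17.1, pandas 2.3.3 and matplotlib 3.10.9 were used.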

Additional observations from a re-analysis of the deposited data

Results flagged for a closer look

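*Krt16*, a keratin of wound-edge keratinocytes, was past 2-fold in opposite directions in the 2 libraries when monocyte-like cells were set against other gate cells. Its log2 ratio was -1.52 in PBS (63.2 against 182 CPM) and 1.24 in DTX (101 against 43.0 CPM). In DTX members 65.2% of its UMIs (569 of 873) were in 1 cell, so the direction in DTX rested largely on that cell. Without the highest cell in each library, the log2 ratio of DTX to PBS members for *Krt16* went from 0.68 to -0.71. The difference between the libraries was not tested.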

How the results depend on the processing

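Leaving out a replicate was not possible with 1 library per treatment. No paired analysis was possible because each group had 1 library. Monocyte-like cells were a larger share of the gate in DTX than in PBS under every alternative run. In PBS and DTX the share was 5.856% and 19.18% with a minimum of 5 UMIs in the rule, 9.781% and 28.41% with 2 UMIs, and 3.62% and 12.27% after thinning to 2000 UMIs, and it was 18.71% in DTX with at most 2000 genes per cell. Genes 2-fold higher than in other gate cells in both libraries numbered 2 with the minimum of 5 UMIs, 2 with 10 CPM added and 7 with a mean of 10 CPM, which also gave 50 lower. Between treatments the 10 CPM minimum gave 215 higher and 252 lower, and no filter 4073 and 2314. Without the highest cell of each gene, 28 were lower. Centred on the median gene, 53 were higher and 50 lower, against 61 and 45. With at most 2000 genes per cell the nonclassical monocyte and immediate early list medians turned to 0.217 and 0.152, *Col4a1* to 0.087, *Cxcl5* to 0.239 and *Fabp4* to 0.595. Without the highest doublet scores the nonclassical list turned to 0.185, *Col4a1* to 1.993 and *Fabp4* to 0.897. The immediate early list was 0.04 with the minimum of 5 UMIs. *Cst6*, against other gate cells, was 0.554 in PBS with 2 UMIs and 0.291 in DTX with up to 10% mitochondrial UMIs. Apart from the effect of single cells, the causes were not tested.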
